A study of Mus musculus with 12 samples.

Results

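The transcripts of the aryl hydrocarbon receptor (AHR) pathway measured here are 9 of the 43432 genes in the count table. They were chosen by name as the receptor gene Ahr, its dimerisation partners Arnt and Arnt2, its co-chaperone gene Ptges3, its repressor gene Ahrr, and the classical target genes Tiparp, Cyp1a1, Cyp1a2 and Cyp1b1. All 9 were matched by Ensembl identifier, and 7 had enough counts to be tested. Cyp1a1 and Cyp1a2 did not.

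AHR is a ligand-activated transcription factor of the bHLH-PAS family. Without ligand it is held in the cytoplasm by a complex that includes the chaperone HSP90 and the co-chaperone p23 (the product of Ptges3). With ligand it moves to the nucleus, pairs with ARNT and binds xenobiotic response elements, whose core is GCGTG. The genes it turns on include its own repressors, so that the response limits itself: AHRR competes with AHR for ARNT, and TIPARP ADP-ribosylates the receptor.

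Poly-A selected RNA was sequenced from tumours of CR705 cells, a pancreatic cancer line of the mouse, with the tissue labelled as pancreas. There were 6 tumour libraries labelled AHRKO, from cells with the receptor gene knocked out, and 6 labelled WT. No compound is named for any sample, although the culture texts of the labels mention test compounds. The sources used here do not give how Ahr was disrupted, whether the AHRKO cells are 1 clone, or the host mouse and its age. The labels do not tie the libraries to animals, so each p measures the spread between these samples, which may be technical. Libraries held from 14772343 to 35881469 counts.

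The tumours held other cells than the CR705 line, and AHRKO replicate 1 stood apart in that respect. Summed levels of 7 leukocyte markers were 2477 CPM (the usual depth-scaled count, here on TMM-corrected totals) in that library, from 425 to 910 CPM in the other AHRKO libraries and from 244 to 448 CPM in WT libraries. Summed levels of 8 epithelial and ductal markers were 697 CPM in AHRKO replicate 1, from 2977 to 4764 CPM in the other AHRKO libraries and from 3478 to 4936 CPM in WT libraries. Summed levels of 8 fibroblast markers were 56868 CPM in AHRKO replicate 1, from 8927 to 20928 CPM in the other AHRKO libraries and from 15539 to 38985 CPM in WT libraries. Of 5 markers of pancreatic acinar cells, none had enough counts to be tested, and Cela2a was at 0 in all libraries. Fold changes of the tested members, and the list counts, are therefore also given without AHRKO replicate 1. In such bulk samples, fewer cells of a type and less RNA per cell cannot be told apart.

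Of the 7 tested transcripts, 3 were lower in AHRKO tumours, none was higher, and 4 missed the threshold (edgeR's quasi-likelihood test, Benjamini-Hochberg adjusted p under 0.05 over all genes tested). The 3 were Arnt2, Ahrr and Arnt. Among all 15449 tested genes 13.6% were lower and 15.9% higher in AHRKO, and 29.5% were called in either direction. No test was made of the members' share against that background. None of the 7 was higher at an unadjusted p under 0.05 either, nor at an adjusted p under 0.05 with DESeq2 or limma-voom. None of the 7 had AHRKO and WT values that did not overlap, while over all tested genes 7.35% lay lower in every AHRKO library than in every WT library and 6.03% lay higher. Without AHRKO replicate 1 the same 3 genes passed, against a background of 17.8% lower, 19.1% higher and 36.9% called in either direction.

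**Figure D1:**
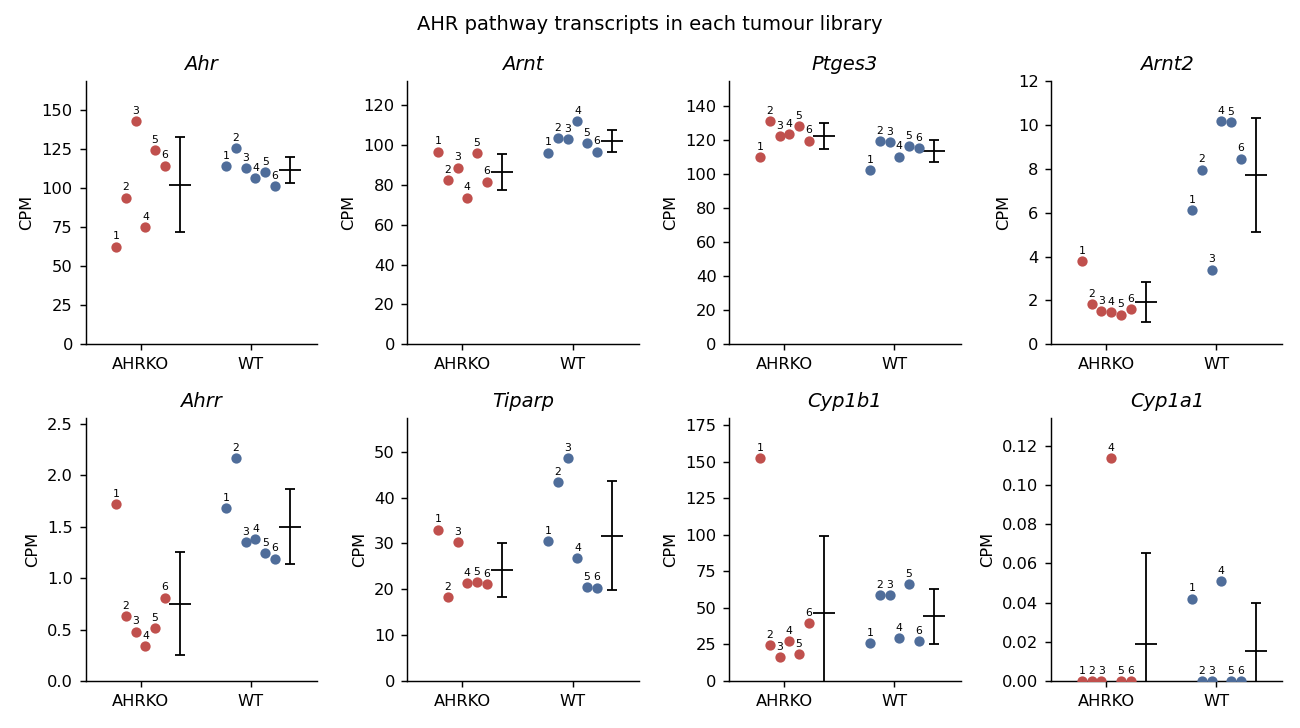
CPM of 8 transcripts (y axis, linear, from 0) in the 6 AHRKO libraries (red, left) and the 6 WT libraries (blue, right) of each panel. Points are libraries with their replicate numbers, and the bar beside them is the mean ± SD, drawn down to 0 where it would pass it. AHRKO replicate 1 is the highest AHRKO library for Arnt, Arnt2, Ahrr, Tiparp and Cyp1b1 and the lowest for Ahr and Ptges3.

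Ahr (ENSMUSG00000019256, GRCm38 chromosome 12, 35497974 to 35535038, minus strand) encodes the receptor itself. Its transcript was present in all libraries. AHRKO libraries ran from 62.5 to 143 CPM with a median of 104, and WT libraries from 101 to 125 CPM with a median of 111. Thus 3 AHRKO libraries (replicates 1, 2 and 4) were below all WT libraries and 1 (replicate 3) was above them. The coefficient of variation was 29.9% in AHRKO and 7.32% in WT, a difference that was not tested. The log2 fold change (AHRKO over WT) was -0.13 ± 0.17 (SE; adjusted p = 0.606, edgeR's quasi-likelihood test). Without AHRKO replicate 1 it was -0.02 ± 0.14 (adjusted p = 0.916). The lowest Ahr level, 62.5 CPM, was in AHRKO replicate 1, which also had the lowest epithelial and ductal marker sum. No such order was seen among AHRKO replicates 2 to 6. Their marker sums were 4283, 3582, 4764, 4163 and 2977 CPM, with Ahr at 94.0, 143, 75.2, 124 and 114 CPM. The part of epithelial content in the Ahr values was not tested. The counts are summed over the whole gene, so they do not show whether a part of the transcript is missing, and they do not check the genotype labels.

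Arnt2 (ENSMUSG00000015709, chromosome 7, 84246278 to 84410176, minus strand), a partner of bHLH-PAS factors best known from neural tissue, showed the largest difference of the 7. It was at 3.80, 1.84, 1.51, 1.48, 1.35 and 1.62 CPM in AHRKO replicates 1 to 6. In WT replicates 1 to 6 it was at 6.14, 7.97, 3.40, 10.2, 10.1 and 8.47 CPM. Every AHRKO library but replicate 1 lay below the lowest WT library, replicate 3. Arnt2 averaged 1.93 ± 0.928 CPM in AHRKO and 7.71 ± 2.59 CPM in WT (SD, n = 6 each). The log2 fold change was -1.99 ± 0.32, which leaves 25.2% of the WT level (adjusted p = 0.00127, edgeR's quasi-likelihood test), and it passed in all 19 alternatives. Without AHRKO replicate 1 it was -2.29 ± 0.27 (adjusted p = 0.000136).

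Arnt (ENSMUSG00000015522, chromosome 3, 95434388 to 95497240, plus strand) encodes the obligate partner of AHR, which also pairs with the hypoxia factor HIF1A. AHRKO libraries ran from 73.7 to 96.8 CPM with a median of 85.5, and WT libraries from 96.2 to 112 CPM with a median of 102. All but 1 AHRKO library lay below the lowest WT library, and replicate 1, at 96.8 CPM against 96.2 CPM in WT replicate 1, was the exception. The log2 fold change was small, -0.24 ± 0.08, or 84.8% of the WT level (adjusted p = 0.0378, edgeR's quasi-likelihood test). That call rested on the full set of libraries: it was lost on leaving out any WT library except replicate 1, or AHRKO replicates 2, 3, 4 or 6 one at a time (adjusted p of 0.0511 to 0.0870). With AHRKO replicate 1 left out the change was -0.27 ± 0.07 (adjusted p = 0.0136).

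Arnt remained by far the more abundant partner in both groups. Per kilobase of exon, Arnt2 made up 2.24 ± 0.872% of the summed Arnt and Arnt2 level in AHRKO libraries and 7.24 ± 2.22% in WT libraries (SD, n = 6 each). The share ran from 1.44% to 3.93% in AHRKO and from 3.32% to 9.46% in WT, so the groups overlapped only through AHRKO replicate 1 and WT replicate 3.

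Ptges3 (ENSMUSG00000071072, chromosome 10, 128058954 to 128077272, plus strand) encodes p23, the HSP90 co-chaperone of the unliganded receptor. AHRKO libraries ran from 110 to 131 CPM with a median of 123, and WT libraries from 102 to 119 CPM with a median of 116. AHRKO replicate 1 was the only AHRKO library below the WT median, and the other 5 were above all WT libraries. The log2 fold change of 0.11 ± 0.07 missed the threshold (adjusted p = 0.249, edgeR's quasi-likelihood test), as did 0.14 ± 0.06 without AHRKO replicate 1 (adjusted p = 0.115).

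The receptor's classical targets and its repressor are read through GCGTG elements near or upstream of their starts. The 250 bases before the RefSeq start (GRCm38.p6) were available for 8 of the 9 genes. Those of Arnt2 and of the 4 target genes with GCGTG or its reverse complement CACGC are shown. They run 5′ to 3′ on the gene's strand, with each match in capitals.
Ahrr, chr13:74292332-74292581, minus strand: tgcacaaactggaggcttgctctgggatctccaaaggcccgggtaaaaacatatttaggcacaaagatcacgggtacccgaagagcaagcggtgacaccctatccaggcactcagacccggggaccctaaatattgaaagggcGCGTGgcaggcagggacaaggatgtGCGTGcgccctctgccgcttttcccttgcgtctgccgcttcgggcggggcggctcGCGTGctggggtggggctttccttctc
Tiparp, chr3:65528197-65528446, plus strand: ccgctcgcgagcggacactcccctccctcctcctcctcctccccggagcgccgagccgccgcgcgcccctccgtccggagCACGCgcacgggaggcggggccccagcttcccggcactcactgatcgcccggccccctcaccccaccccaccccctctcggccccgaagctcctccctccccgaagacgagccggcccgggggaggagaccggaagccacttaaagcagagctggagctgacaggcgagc
Cyp1b1, chr17:79715062-79715311, minus strand: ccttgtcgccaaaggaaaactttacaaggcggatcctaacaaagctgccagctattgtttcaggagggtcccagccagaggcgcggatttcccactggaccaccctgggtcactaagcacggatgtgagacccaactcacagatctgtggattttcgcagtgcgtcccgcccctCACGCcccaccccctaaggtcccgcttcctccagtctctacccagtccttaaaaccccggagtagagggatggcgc
Cyp1a1, chr9:57697363-57697612, plus strand: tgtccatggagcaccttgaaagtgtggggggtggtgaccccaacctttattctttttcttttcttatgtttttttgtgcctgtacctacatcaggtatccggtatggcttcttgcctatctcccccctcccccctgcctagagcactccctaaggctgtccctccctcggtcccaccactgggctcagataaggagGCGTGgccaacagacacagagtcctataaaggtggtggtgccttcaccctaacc
Arnt2, chr7:84410039-84410288, minus strand: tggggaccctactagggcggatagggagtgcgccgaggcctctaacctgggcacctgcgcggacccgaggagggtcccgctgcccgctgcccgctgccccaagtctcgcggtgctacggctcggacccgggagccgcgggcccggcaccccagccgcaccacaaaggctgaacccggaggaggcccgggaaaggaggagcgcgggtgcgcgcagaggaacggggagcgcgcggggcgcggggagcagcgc
Ahrr held 3 matches, which begin 107, 82 and 27 bases before the RefSeq start. Tiparp, Cyp1b1 and Cyp1a1 held 1 each, 170, 76 and 54 bases before theirs. Arnt2, the gene that fell most, held none in this window. Of the other members, Ptges3 held 2 matches, Arnt 1 and Cyp1a2 none. Among all 32851 promoter windows of this length 28.2% held at least 1 match and 2.67% held 3 or more. These shares were not matched for base composition. The windows shown held from 53.6% (Cyp1a1) to 75.6% (Arnt2) G and C. The RefSeq starts differ for some genes from the GENCODE bounds given in this report. The Cyp1a1 window lies inside the bounds of its gene, and those of Arnt2, Tiparp, Arnt, Ptges3 and Cyp1a2 lie partly inside. GCGTG is also a form of the hypoxia response core, and these matches are letters in a window, not measured binding.

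Ahrr (ENSMUSG00000021575, chromosome 13, 74211118 to 74292331, minus strand), the AHR repressor gene, was scarce. It was at 1.72, 0.629, 0.481, 0.342, 0.515 and 0.810 CPM in AHRKO replicates 1 to 6, from 77 reads in all. In WT replicates 1 to 6 it was at 1.68, 2.17, 1.35, 1.38, 1.24 and 1.19 CPM, from 222 reads. AHRKO replicates 2 to 6 lay below every WT library, and replicate 1 lay above all WT libraries but replicate 2. Ahrr averaged 0.750 ± 0.501 CPM in AHRKO and 1.503 ± 0.369 CPM in WT (SD, n = 6 each), with a log2 fold change of -1.002 ± 0.35, or 49.9% of the WT level (adjusted p = 0.0476, edgeR's quasi-likelihood test). Leaving out AHRKO replicate 1 gave -1.43 ± 0.27 (adjusted p = 0.00190). Leaving out any of the other 11 libraries ended the call, with adjusted p from 0.0616 to 0.107. Relative to Ahr, per kilobase of exon, Ahrr stood at 0.437%, 0.220%, 0.297%, 0.270% and 0.462% in AHRKO replicates 2 to 6, at 1.80% in AHRKO replicate 1, and from 0.735% to 1.13% in WT libraries. AHRKO replicate 1 also had the most leukocyte, fibroblast and endothelial marker counts, and their part in its Ahrr level was not tested. In AHRKO replicates 2 to 6 leukocyte sums were 821, 663, 910, 425 and 758 CPM, in no order with Ahrr. Fibroblast sums there were 20928, 14429, 11386, 8927 and 16748 CPM. WT libraries, with more Ahrr than these 5, had leukocyte sums of 244 to 448 CPM.

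Tiparp (ENSMUSG00000034640, chromosome 3, 65528410 to 65555518, plus strand) encodes the ADP-ribosyltransferase that AHR induces and that acts back on it. AHRKO libraries ran from 18.3 to 33.0 CPM with a median of 21.5, and WT libraries from 20.4 to 48.7 CPM with a median of 28.6. WT replicates 2 and 3, at 43.4 and 48.7 CPM, were above every AHRKO library, while the other 4 WT libraries lay within the AHRKO range. The log2 fold change of -0.39 ± 0.24 missed the threshold (adjusted p = 0.241, edgeR's quasi-likelihood test), as it did without AHRKO replicate 1 (-0.50 ± 0.24, adjusted p = 0.126). A pseudogene annotated on the opposite strand, 4931440P22Rik, overlaps Tiparp with a mean of 29.5 counts in AHRKO and 33.2 in WT, and the sources used here do not give the strand setting of the counting.

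Of the CYP1 enzymes, which oxidise planar aromatic compounds and some endogenous AHR ligands, only Cyp1b1 was expressed at a measurable level. Cyp1a1 (ENSMUSG00000032315, chromosome 9, 57687928 to 57703824, plus strand), the most used readout of AHR activity, had 2 reads in the 6 AHRKO libraries together, all in replicate 4, and 2 reads in the 6 WT libraries, 1 each in replicates 1 and 4. A difference was not detectable at this depth (exact two-sided permutation test, p = 1.00). Cyp1a2 (ENSMUSG00000032310, chromosome 9, 57676937 to 57683703, minus strand), its head-to-head neighbour and a gene mainly of liver, had 0 reads in all 12 libraries. A count of 0 allows up to 3 reads, which is from 0.150 to 0.203 CPM in the AHRKO libraries and from 0.0836 to 0.155 CPM in the WT libraries on raw totals, counting error only. No library of either group had more than 2 reads of Cyp1a1.

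Cyp1b1 (ENSMUSG00000024087, chromosome 17, 79701537 to 79715061, minus strand), the CYP1 enzyme that mesenchymal cells are known to express, varied more than any other tested member. It was at 152, 24.5, 16.2, 27.1, 18.3 and 39.5 CPM in AHRKO replicates 1 to 6. In WT replicates 1 to 6 it was at 25.6, 58.7, 58.7, 29.1, 66.1 and 27.2 CPM. AHRKO replicate 1 was more than every other library, and 5 of 6 AHRKO libraries lay below the WT median of 43.9 CPM. Over all libraries the log2 fold change was 0.07 ± 0.53 (adjusted p = 0.940, edgeR's quasi-likelihood test). Without AHRKO replicate 1 it was -0.82 ± 0.32, with a mean of 25.1 ± 9.16 CPM in the 5 AHRKO libraries (SD) against 44.2 ± 18.8 CPM in the 6 WT libraries, and missed the threshold (adjusted p = 0.0599). Its sign also turned on leaving out WT replicate 1, 4 or 6, to between -0.05 and -0.03.

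Cyp1b1 was highest in the libraries with the most fibroblast marker counts, while no such order was seen among AHRKO replicates 2 to 6. Summed levels of the 8 fibroblast markers were 56868, 20928, 14429, 11386, 8927 and 16748 CPM in AHRKO replicates 1 to 6 and 15539, 38240, 38985, 18092, 28308 and 24362 CPM in WT replicates 1 to 6. The 3 WT libraries with the most Cyp1b1, replicates 2, 3 and 5, were also the 3 with the highest fibroblast sums, and the same held for AHRKO replicate 1. This order was not particular to fibroblast markers. The same 3 WT libraries had the highest leukocyte marker sums of WT, at 439, 448 and 311 CPM. WT replicates 1, 4 and 6 had 244, 277 and 262 CPM, and AHRKO replicate 1 had 2477 CPM. None of the 8 fibroblast markers passed the test between the groups with all libraries, and 5 of 8 were lower in AHRKO without replicate 1. The parts of fibroblast and leukocyte content in the Cyp1b1 values were not tested.

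**Figure D2:**
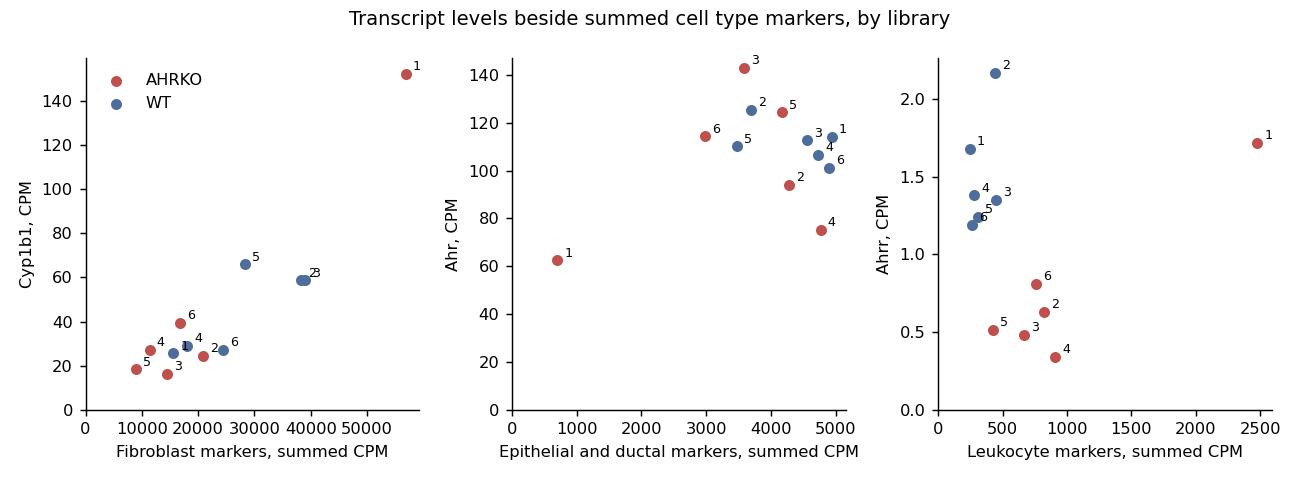
CPM of Cyp1b1, Ahr and Ahrr (y axes, left to right) against the summed CPM of fibroblast, epithelial and ductal, and leukocyte markers (x axes), with the 6 AHRKO libraries in red and the 6 WT libraries in blue, numbered by replicate. AHRKO replicate 1 lies alone in all 3 panels, with 56868 CPM of fibroblast markers, 697 CPM of epithelial and ductal markers and 2477 CPM of leukocyte markers.

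**Figure D3:**
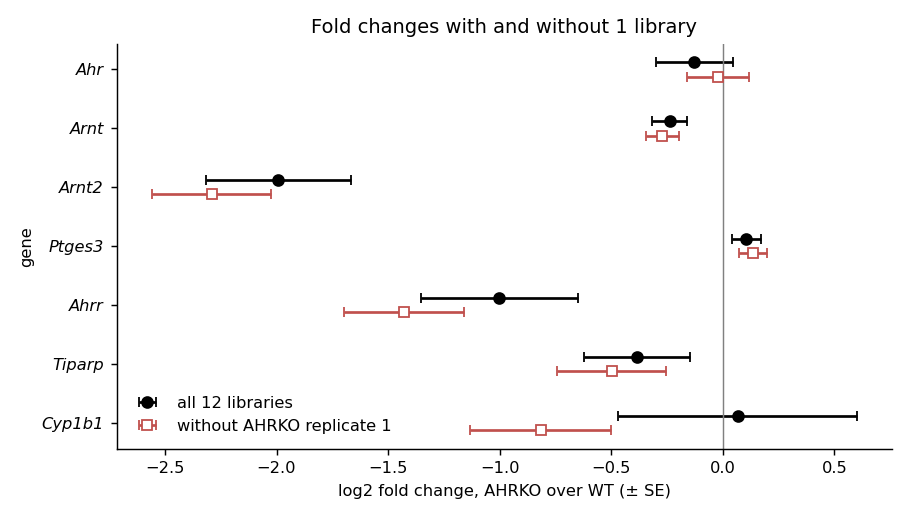
Log2 fold change, AHRKO over WT, with its SE (x axis) for the 7 tested genes (y axis), from all 12 libraries (black circles) and without AHRKO replicate 1 (open red squares). Arnt2, Ahrr and Arnt lie below 0 in both, while Cyp1b1 stands at 0.07 and at -0.82.

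Put on a scale that allows comparison between genes, CPM per kilobase of merged exons, the order of mean levels over all libraries was the same in both groups. In AHRKO tumours Ptges3 came first at 55.1 ± 3.34, followed by Ahr at 16.6 ± 4.96, Arnt at 10.8 ± 1.13, Cyp1b1 at 7.93 ± 9.02, Tiparp at 5.57 ± 1.36, Arnt2 at 0.251 ± 0.121 and Ahrr at 0.0794 ± 0.0531 (SD, n = 6). In WT tumours the levels were 51.2 ± 2.91 for Ptges3, 18.1 ± 1.33 for Ahr, 12.7 ± 0.719 for Arnt, 7.57 ± 3.21 for Cyp1b1, 7.27 ± 2.73 for Tiparp, 1.003 ± 0.337 for Arnt2 and 0.159 ± 0.0391 for Ahrr (SD, n = 6). Cyp1b1 and Tiparp did not differ beyond their spread in either group. Their order in AHRKO turned without replicate 1, to 4.30 ± 1.57 for Cyp1b1 and 5.17 ± 1.05 for Tiparp (SD, n = 5). On that scale Ahr and Arnt stood far above Ahrr in both groups.

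Of the 6 tested genes that start within 1 Mb of the start of Ahr, 4 were lower in AHRKO, none was higher, and Tspan13 (0.49 ± 0.21) and Bzw2 (-0.05 ± 0.18) did not pass (adjusted p of 0.0915 and 0.871). The 4 were, named after their values were seen, the histone deacetylase gene Hdac9 with a log2 fold change of -2.40 ± 0.16 (adjusted p = 5.78e-06), the sorting nexin gene Snx13 at -0.48 ± 0.08 (adjusted p = 0.00127), Ispd, which makes a precursor for dystroglycan glycosylation, at -0.85 ± 0.17 (adjusted p = 0.00414), and Ankmy2 at -0.31 ± 0.10 (adjusted p = 0.0400; all by edgeR's quasi-likelihood test). Ankmy2 lost its call on leaving out any of 8 libraries (WT replicates 2, 4, 5 and 6 and AHRKO replicates 2, 3, 4 and 6; adjusted p of 0.0515 to 0.0901), and the other 3 kept theirs in all 12 leave-outs. Over chromosome 12 as a whole 173 of 524 tested genes were lower and 40 higher, with a median log2 fold change of -0.24, against 0.02 over all tested genes. Ahr itself, at -0.13, lay above both that median and the -0.40 of its neighbours. Around Arnt2, 5 of the 11 tested genes within 1 Mb were higher and none lower, with a median of 0.41. On chromosome 7 as a whole 294 of 1164 tested genes were higher and 48 lower, with a median of 0.21. These counts stand beside 15.9% higher and 13.6% lower over all tested genes. Around Ahrr 3 of 21 tested genes were higher and none lower, with a median of 0.19. Around Tiparp 3 of 9 were lower and none higher, with a median of -0.46, close to the -0.39 of Tiparp. For Arnt 9 of 69 neighbours were higher and 10 lower, for Cyp1b1 2 of 21 were higher and 3 lower, and for Ptges3 9 of 78 were higher and 5 lower.

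The members did not share a common pattern over libraries. As a description, Pearson's r was taken over the 12 libraries on deviations of log2 CPM from the group means, where all values share depth and cell content and AHRKO replicate 1 weighs heavily. Among the 7 tested members it was highest between Ahrr and Cyp1b1 (0.75) and lowest between Ahr and Cyp1b1 (-0.61). Over all protein-coding genes with a mean log2 CPM of at least 1, the genes most like Ahr were Ctdspl2 (0.93), Wdr19 (0.92) and Zc3h14 (0.91). Those most like Arnt were Srrm1 (0.92), Traf6 (0.91) and Coa5 (0.90), and those most like Arnt2 were Evl (0.92), Trp53inp2 (0.91) and Akap11 (0.90). Ahrr went most closely with Pip4k2b (0.94), Iqsec2 (0.94) and B4galnt1 (0.94), and Ptges3 with Exo1, a DNA repair exonuclease, Neurl1a and Dbf4, a regulator of replication origins (0.90 each). Tiparp went with the glucose transporter gene Slc2a3 (0.98), the receptor gene Tnfrsf9 (0.95) and Gipr (0.92). Cyp1b1 went with the extracellular matrix gene Svep1 (0.97) and 2 lymphocyte genes, Ly9 (0.96) and Gimap5 (0.96).

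Of 22 further genes described as AHR-responsive, all tested, 5 rose, 1 fell and 16 did not pass, with a median log2 fold change of 0.006 against 0.02 over all tested genes, and a background of 15.9% higher and 13.6% lower. DESeq2 gave 6 higher and 2 lower, limma-voom 6 higher and 4 lower, and the fit without AHRKO replicate 1 gave 7 higher and 3 lower. Xdh, which encodes the purine-degrading xanthine dehydrogenase, ran from 203 to 398 CPM with a median of 290 in AHRKO libraries and from 53.1 to 112 CPM with a median of 100.0 in WT libraries, without overlap. Its log2 fold change was 1.65 ± 0.20 (adjusted p = 0.000263, edgeR's quasi-likelihood test). Xdh lies on chromosome 17, where 145 of 754 tested genes were higher and 62 lower, and the part of position was not tested. Kynu, an enzyme of kynurenine breakdown, rose by 1.96 ± 0.51 (adjusted p = 0.0128), the fatty acid receptor gene Cd36 by 1.73 ± 0.50 (adjusted p = 0.0218), the cytokine gene Il1b by 1.32 ± 0.40 (adjusted p = 0.0274) and the glucuronosyltransferase gene Ugt1a6a by 1.05 ± 0.34 (adjusted p = 0.0359). Ugt1a6a shares exons with the other Ugt1a genes, so its count is uncertain. Ereg, an EGF-family ligand, fell by 0.71 ± 0.23 on the log2 scale (adjusted p = 0.0349). All 6 calls held without AHRKO replicate 1, with Il1b at 0.88 ± 0.31 (adjusted p = 0.0422).

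The NAD(P)H quinone reductase gene Nqo1 and the aldehyde dehydrogenase gene Aldh3a1, standard members of the AHR battery named here after their values were seen, did not pass, at -0.12 ± 0.25 and 0.81 ± 0.54 (adjusted p of 0.737 and 0.274). Several of the calls depended on single libraries. Without AHRKO replicate 4, Cd36 was at an adjusted p of 0.0519. For Il1b it was 0.0617 without WT replicate 4 and 0.0535 without WT replicate 5. Ereg lost its call on leaving out any of 7 libraries (WT replicates 1, 2, 3 and 5 and AHRKO replicates 2, 5 and 6; adjusted p of 0.0503 to 0.0800), and Ugt1a6a on leaving out any of 8 (WT replicates 1, 2, 4, 5 and 6 and AHRKO replicates 4, 5 and 6; adjusted p of 0.0561 to 0.0729). Only 3 battery genes rose when WT replicate 5 or AHRKO replicate 4 was left out. The count of genes that fell was 0 on leaving out any of WT replicates 1, 2, 3 and 5 and AHRKO replicates 2 and 6, 2 on leaving out AHRKO replicate 4 or 5, and 3 on leaving out AHRKO replicate 1. Il1b and Kynu are also leukocyte genes, and all 7 leukocyte markers rose in AHRKO (median log2 fold change 1.69), as did 6 of 6 macrophage, 5 of 5 T cell and 2 of 2 tested B cell markers, while 0 of 6 endothelial and 0 of 8 epithelial and ductal markers passed. Without AHRKO replicate 1 the leukocyte median was 1.04, with 7 of 7 higher. Then 5 of 6 macrophage markers were higher, without Adgre1 (adjusted p = 0.0784), and the T cell median was 2.06, against 2.91 over all libraries. Of the epithelial and ductal markers Sox9 was then higher and Krt19 lower, at 0.70 ± 0.14 and -0.81 ± 0.17 (adjusted p of 0.00263 and 0.00337). The part of these cells in the rises was not tested.

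Of 18 genes for the cytoplasmic AHR complex and nuclear coregulators, all tested, 3 rose, 4 fell and 11 did not pass, with a median of -0.07. That is 16.7% higher and 22.2% lower, against 15.9% and 13.6% over all tested genes, and the counts were the same without AHRKO replicate 1. Hsp90aa1, the inducible HSP90 chaperone, ran from 308 to 483 CPM with a median of 399 in AHRKO libraries and from 533 to 713 CPM with a median of 667 in WT libraries, without overlap. It fell by 0.69 ± 0.12 on the log2 scale (adjusted p = 0.00211, edgeR's quasi-likelihood test). Hsp90aa1 lies on chromosome 12, where 173 of 524 tested genes were lower and 40 higher, with a median of -0.24. The part of position in its fall was not tested. Cul4b, the cullin of a ubiquitin ligase that AHR can join, fell by 0.57 ± 0.10 (adjusted p = 0.00216), the chromatin remodelling ATPase gene Smarca4 by 0.46 ± 0.09 (adjusted p = 0.00423), and the Mediator subunit gene Med1 by 0.42 ± 0.13 (adjusted p = 0.0265). Smarca4 lies on chromosome 9, where 196 of 882 tested genes were lower and 68 higher, and the part of position was not tested. The constitutive chaperone gene Hsp90ab1 was at -0.02 ± 0.17 (adjusted p = 0.950) and was named after its value was seen.

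Relb, an NF-kappaB subunit known to bind AHR, ran from 56.2 to 94.6 CPM with a median of 63.0 in AHRKO libraries and from 31.1 to 44.9 CPM with a median of 35.8 in WT libraries, without overlap. It rose by 0.85 ± 0.14 on the log2 scale (adjusted p = 0.00127, edgeR's quasi-likelihood test). Without AHRKO replicate 1 it rose by 0.72 ± 0.11 (adjusted p = 0.000490, same test). Relb was highest in that library, which also had the highest leukocyte marker sum (2477 CPM). Its gene lies on chromosome 7, where 294 of 1164 tested genes were higher and 48 lower. The parts of leukocyte content and of position in the rise were not tested. Stub1, a ubiquitin ligase of chaperone clients, rose by 0.45 ± 0.14 (adjusted p = 0.0251), and the coactivator gene Ncoa3, named after its value was seen, by 0.33 ± 0.11 (adjusted p = 0.0385). The Stub1 gene is on chromosome 17, where 145 of 754 tested genes were higher and 62 lower, and the part of position was not tested. Stub1 lost its call on leaving out any of WT replicates 4, 5 and 6 and AHRKO replicate 3 (adjusted p of 0.0506 to 0.0589), and Med1 without WT replicate 1 or 5 or AHRKO replicate 3 (adjusted p of 0.0504 to 0.0599). Ncoa3 lost its call on leaving out any WT library or AHRKO replicate 5 or 6 (adjusted p of 0.0551 to 0.0751). Only 1 of these genes rose when any of WT replicates 4 to 6 was left out.

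Of 15 other genes of the bHLH-PAS family and the related PAS-domain Period genes, 12 were tested: Per2 rose, Hif1a fell and 10 did not pass, with a median of 0.10. That is 8.33% in each direction, against 15.9% higher and 13.6% lower over all tested genes. Hif1a, the hypoxia factor that uses the same partner ARNT, ran from 222 to 320 CPM with a median of 234 in AHRKO libraries and from 280 to 387 CPM with a median of 333 in WT libraries. It fell by 0.45 ± 0.11 on the log2 scale (adjusted p = 0.0119, edgeR's quasi-likelihood test), and the overlap came from AHRKO replicate 1. Hif1a lies on chromosome 12, where 173 of 524 tested genes were lower and 40 higher. The part of position in its fall was not tested. The circadian gene Per2 ran from 20.4 to 45.7 CPM with a median of 27.7 in AHRKO libraries and from 13.7 to 19.0 CPM with a median of 17.8 in WT libraries, without overlap, and rose by 0.75 ± 0.18 (adjusted p = 0.00922). With AHRKO replicate 1 left out 2 rose and 2 fell, and with WT replicate 4 left out 2 fell.

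**Figure D4:**
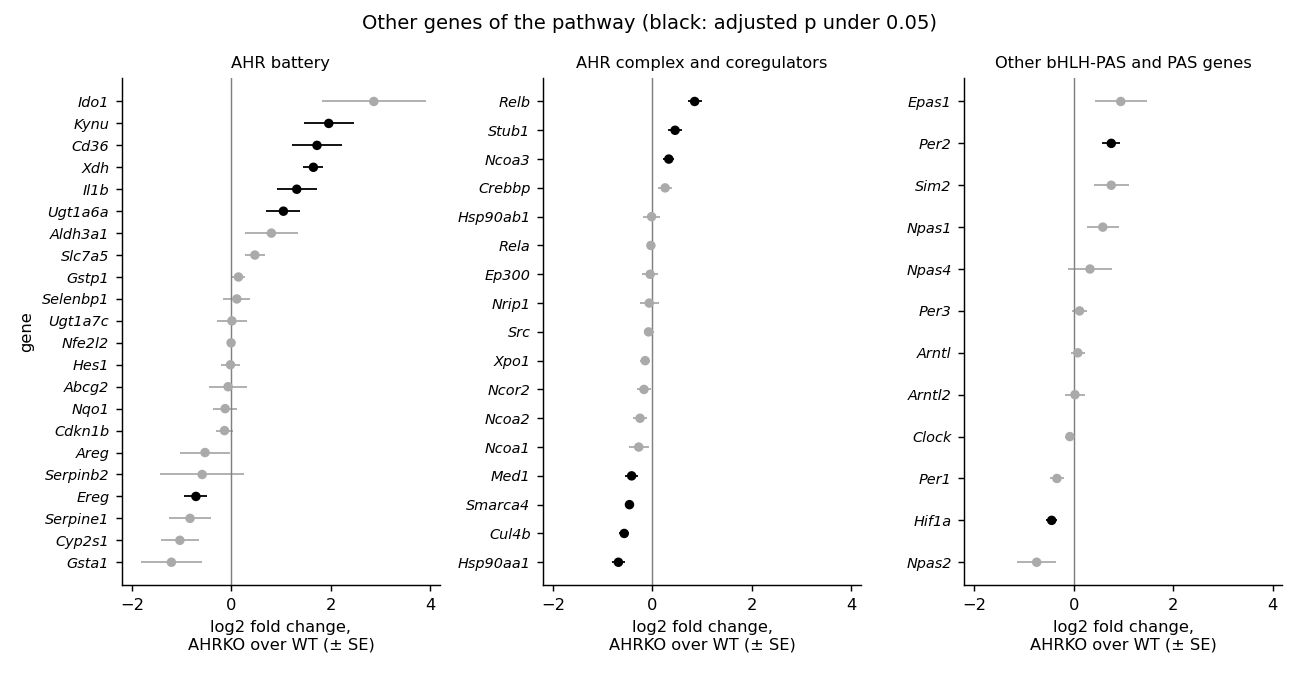
Log2 fold change, AHRKO over WT, with its SE (x axis) for tested genes (y axis) of 3 lists: 22 AHR-responsive genes, 17 of the 18 genes of the complex and its coregulators, and 12 other bHLH-PAS and PAS genes. Black marks an adjusted p under 0.05, which 6, 7 and 2 genes reached.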

How the data were processed

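The authors deposited 1 table of unnormalised counts, whole numbers of reads for each gene in each of the 12 libraries. Per the submitters' processing notes, mm10, HISAT2, SAMtools, HTSeq and DESeq2 were used. The sources used here do not give the annotation, strandedness or settings. Symbols and positions came from GENCODE M21 (GRCm38, the same assembly as mm10), which matched 42548 of 43432 identifiers. No 2 libraries of a group agreed within sampling noise (lowest chi-squared per degree of freedom 12.6).

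Genes were kept by edgeR's filterByExpr (15449), scaled by TMM and compared with edgeR's two-sided quasi-likelihood test (AHRKO over WT). P-values were adjusted by Benjamini-Hochberg across every tested gene, with calls at 0.05. CPM used TMM-scaled totals and log2 CPM a prior count of 2. Intervals and limits from counts cover counting error only. Cyp1a1 was tested by an exact permutation over all 924 assignments of the libraries. The tools were edgeR 4.0.16, DESeq2 1.42.0 and limma 3.58.1 under R 4.3.3, and SciPy 1.17.1. On simulated counts with 4-fold changes, 176 of 191 changed genes were recovered and 6 of the unchanged were called, of 15254 tested. The simulation held no smaller change and no outlying library, so it does not bear on calls such as those of Arnt and Ahrr.

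The members and lists were chosen with earlier results of these data known. Named genes were the 9 members, up to 6 passing genes with the smallest p of each list, and cell type markers, and for each tested member the 3 genes with the most similar deviations. Alternatives were DESeq2, limma-voom with sample quality weights, RLE and upper-quartile scaling, no filter, a filter of 10 counts in at least 6 libraries, a replicate block, CPM on raw totals, and leaving out each library. Promoter sequences are from RefSeq (GRCm38.p6). The values of 1 list gene are not reported here.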

Additional observations from a re-analysis of the deposited data

Results flagged for a closer look

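Within groups of 6 libraries, 8 of the 46 gene and group combinations looked at (23 genes) had a library whose gap to its nearest neighbour exceeded Dixon's 95% limit for the group's range. For independent, normally distributed values this would occur in about 1 in 20 groups. CPM need not be normal and the genes share libraries, so the count of 8 cannot be set against that rate. In 6 of the 8 the library was AHRKO replicate 1, where it was the highest of its group.

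Among the pathway members, Cyp1b1 was at 152 CPM in AHRKO replicate 1, against 16.2 to 39.5 CPM in the other AHRKO libraries. Arnt2 was at 3.80 CPM there, against 1.35 to 1.84 CPM, and Ahrr at 1.72 CPM, against 0.342 to 0.810 CPM. Cyp1a1 was at 0.114 CPM in AHRKO replicate 4, which is 2 reads, and at 0 in the other AHRKO libraries.

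Among the list genes, AHRKO replicate 1 had 123 CPM of Il1b, against 24.0 to 58.2 CPM in the other AHRKO libraries, 94.6 CPM of Relb, against 56.2 to 67.2 CPM, and 320 CPM of Hif1a, against 222 to 245 CPM. Per2 was lowest in WT replicate 5, at 13.7 CPM, against 17.4 to 19.0 CPM in the other WT libraries.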

How the results depend on the processing

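Arnt2 kept its direction and its call in all 19 alternatives, with log2 fold changes from -2.29 to -1.90. Mean CPM of the 9 members on raw totals moved by less than 1 SD. With a replicate block, 1114 genes were higher and 1240 lower over all genes, only 1 member was lower, 3 battery genes were higher and 0 lower, 1 complex gene and 0 other bHLH-PAS genes were higher, Ahrr was at -1.14 (adjusted p = 0.0566), Arnt at -0.24 (adjusted p = 0.123) and Cyp1b1 at -0.41. Same-numbered libraries did not deviate together (r from -0.47 to 0.03, and no AHRKO library correlated best with its own number), so the block pairs nothing known. Without a filter only 1 member was lower, with Ahrr at -1.02 (adjusted p = 0.0789) and Arnt at -0.25 (adjusted p = 0.0617), and 1 complex gene was higher. DESeq2 called 2 battery genes lower. Limma-voom called 4 battery genes lower and 2 other bHLH-PAS genes higher, and put Ahr at 0.0093 (adjusted p = 0.959) and Cyp1b1 at -0.53. Causes of these changes were not tested.

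Leaving out single libraries gave 1822 to 2980 genes higher and 1632 to 2778 lower, 1 to 3 members lower, 3 to 7 battery genes higher and 0 to 3 lower, 1 to 3 complex genes higher, 1 to 2 other bHLH-PAS genes higher and 1 to 2 lower. Log2 fold changes ran from -1.43 to -0.85 for Ahrr, from -0.27 to -0.19 for Arnt and from -0.82 to 0.25 for Cyp1b1. Depth limits Cyp1a1 and Cyp1a2, which had at most 2 reads in a library.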

Other observations

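With AHRKO replicate 1 left out, further genes of the AHR-responsive and bHLH-PAS lists passed (chosen after their values were seen). Among AHR-responsive genes, the aldehyde dehydrogenase gene Aldh3a1 was higher in AHRKO by 1.06 ± 0.29 on the log2 scale (adjusted p = 0.0143, edgeR's quasi-likelihood test) and the amino acid transporter gene Slc7a5 by 0.62 ± 0.12 (adjusted p = 0.00202). The cytochrome gene Cyp2s1 was lower, at -0.82 ± 0.24 (adjusted p = 0.0202), and so was the efflux transporter gene Abcg2, at -0.65 ± 0.17 (adjusted p = 0.0116). Among other bHLH-PAS genes, Sim2 was higher, at 0.98 ± 0.13 (adjusted p = 0.000300), and the clock gene Npas2 lower, at -1.10 ± 0.34 (adjusted p = 0.0247). With all 12 libraries none of these 6 genes passed. Over all genes tested without that library, 19.1% were higher and 17.8% lower.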
